A study of Homo sapiens with 6 samples.

Results

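The cornified envelope is the protein shell that keratinocytes build under the plasma membrane as they turn into the dead outer layer of the skin. Its precursors are cross-linked by transglutaminases, enzymes that join glutamine to lysine side chains in the presence of calcium. Envoplakin and periplakin are laid down early beside involucrin, and further proteins, cystatin A among them, are joined to that scaffold. The 10 genes described here are the precursors and associated proteins IVL, EVPL, PPL, CSTA, CNFN and FLG and the transglutaminases TGM1, TGM2, TGM3 and TGM5, found by symbol among the 27945 genes of the deposited table; all 10 were present, each at 1 place in the genome.

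Their transcripts were measured by RNA sequencing in 6 libraries of HaCaT, a line of human keratinocytes that were immortalised spontaneously. The genotypes are MAPK14-null cells (p38α-KO, called knockout), which lack by their label the gene of the stress-activated kinase p38α, and WT cells (wild type). Each genotype was given IL-1α in PBS for 4 h (2 libraries each) or PBS alone for 4 h (unstimulated, 1 library each), in DMEM with serum. The labels describe neither the edit nor whether the null cells are 1 clone or several, and they do not say whether the replicates were separate cultures, so the p-values measure the spread between these libraries only.

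Depth recovered from the values was 21889361 and 29771857 reads in the stimulated knockout libraries, 34967545 reads in the unstimulated knockout library, 16294206 and 18535124 reads in the stimulated wild-type libraries and 16726922 reads in the unstimulated wild-type library. Levels are RPKM, reads scaled to exon length and to the mapped reads of the library, and can be compared between genes. MAPK14 itself was still transcribed in the knockout, at 10.99 and 7.41 RPKM with IL-1α and 11.3 RPKM without, against 13.3, 14.8 and 14.4 RPKM in wild type. A whole-gene value says nothing of a small edit. All 8 general keratinocyte markers reached 1 RPKM, and their summed level was 3110 to 3778 RPKM in knockout libraries and 5495 to 6463 RPKM in wild-type libraries. KRT14, KRT17 and SFN, 3 of the 8, were lower in all knockout libraries than in any wild-type library, and the other 5 overlapped. TP63 stood at 51.1 and 34.7 RPKM with IL-1α and 42.8 RPKM without in knockout, against 27.8 and 35.9 RPKM with IL-1α and 26.6 RPKM without in wild type. Of the 4 suprabasal markers only KRT1 and KRT10 reached 1 RPKM. Fibroblast markers summed to 0.756 to 1.29 RPKM in knockout and 1.67 to 2.59 RPKM in wild type, but did not go 1 way. LUM (at most 0.016 RPKM in knockout, 0.613 to 1.19 RPKM in wild type) and DCN were lower in all knockout libraries. COL3A1 and PDGFRB, at most at 0.229 RPKM, were higher in all of them, and COL1A1 and COL1A2 overlapped. Melanocyte markers summed to at most 0.611 RPKM, with TYR and TYRP1 at 0 everywhere. The 3 immune markers summed to 3.94 to 7.24 RPKM in knockout and 5.37 to 14.4 RPKM in wild type. Of those 3 only CD68, also found in other cells, reached 1 RPKM, and PTPRC and CD3E stayed at or under 0.132 RPKM.

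Of the 10 genes, 7 reached 1 RPKM in at least 1 library and were tested: IVL, CSTA, CNFN, EVPL, PPL, TGM1 and TGM2. FLG, TGM3 and TGM5 stayed below that level in all 6 libraries and are called not expressed at this threshold, although FLG and TGM5 had reads. The expressed members differed widely in level. IVL, PPL, CSTA and EVPL lay between 12.7 and 130 RPKM in every library, above at least 71.1% of the genes detected there. TGM1 was intermediate at 2.63 to 12 RPKM, and TGM2 and CNFN lay between 0.386 and 2.18 RPKM.

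**Figure D1:**
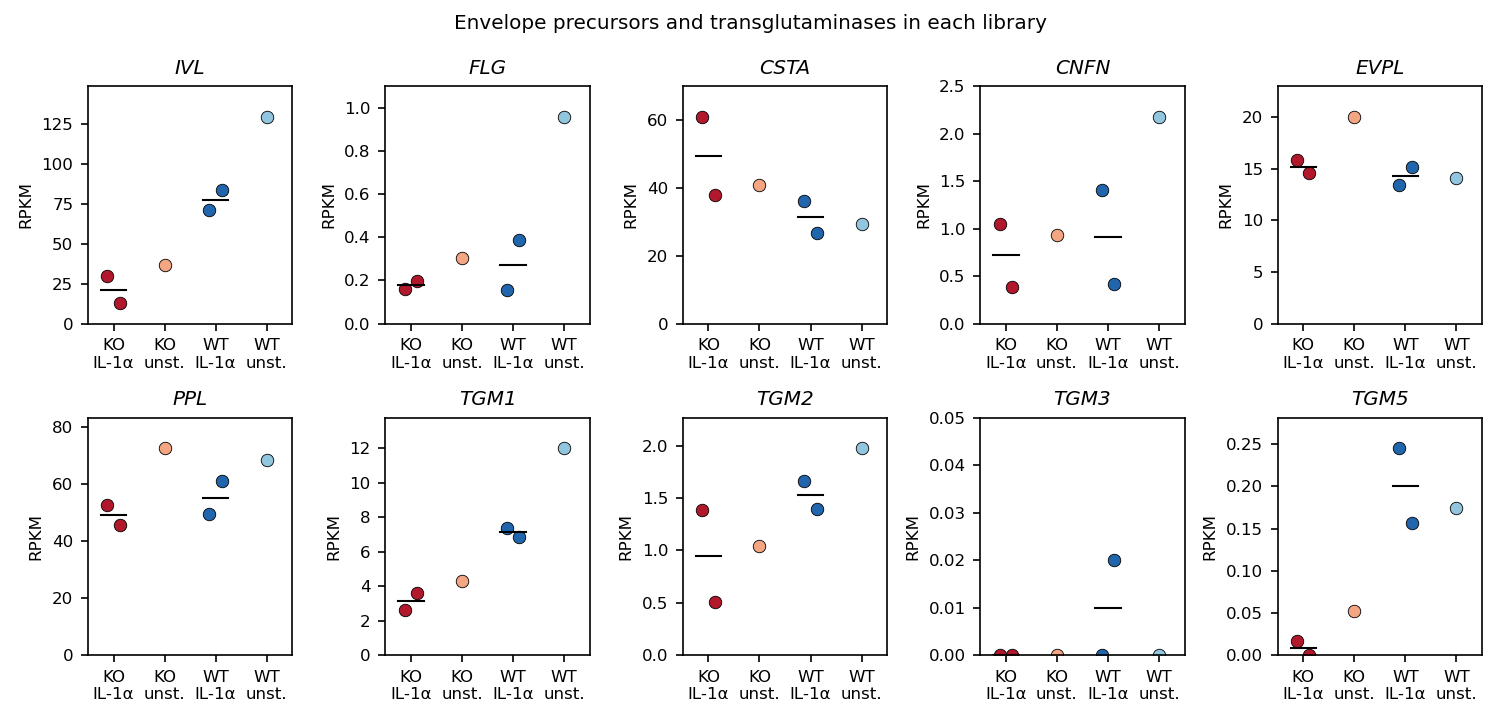
Level of each member in RPKM on the vertical axis (each panel has its own scale from 0), by group on the horizontal axis (KO knockout, WT wild type, unst. unstimulated); points are libraries and lines are means of 2 libraries. IVL and TGM1 are lower in all 3 knockout libraries than in any wild-type library, CSTA is higher, and TGM3 has a single library above 0.

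Of the 10 genes, IVL and FLG lie in the epidermal differentiation complex, a cluster on chromosome 1 of genes for envelope and S100 proteins. Their promoters are shown because IVL was the member with the largest genotype difference and FLG its little-expressed neighbour. The 250 bases before each transcription start (RefSeq, GRCh38.p14) are written 5′ to 3′ on the strand of the gene, with capitals marking matches to TGANTCA, a motif that reads the same on both strands and includes the core bound by AP-1 factors. IVL is at chr1:152908296-152908545 on the plus strand and FLG at chr1:152325240-152325489 on the minus strand.
IVL: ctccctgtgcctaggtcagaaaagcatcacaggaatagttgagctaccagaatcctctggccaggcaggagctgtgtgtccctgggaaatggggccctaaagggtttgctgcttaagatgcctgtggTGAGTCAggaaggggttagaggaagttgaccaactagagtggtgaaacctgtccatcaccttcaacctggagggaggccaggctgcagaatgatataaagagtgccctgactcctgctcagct
FLG: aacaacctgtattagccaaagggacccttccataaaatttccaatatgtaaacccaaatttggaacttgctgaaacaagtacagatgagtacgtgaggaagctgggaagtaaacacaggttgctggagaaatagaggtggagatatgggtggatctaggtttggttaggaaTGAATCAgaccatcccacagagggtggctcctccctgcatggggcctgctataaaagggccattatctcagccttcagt
The match begins 123 bases before the start in IVL and 79 bases before it in FLG. In IVL it reads TGAGTCA, a form of the AP-1 core, and in FLG TGAATCA, which differs from that form at the middle base. A match to TGANTCA was present in 2 of the 5 members with a promoter entry (IVL and FLG, but not CNFN, TGM3 or TGM5), and in 6.57% of 35116 promoters of this length. A match is a string of letters, and binding was not measured.

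IVL encodes involucrin, the glutamine-rich substrate of transglutaminases that is deposited first at the membrane (chromosome 1, 152881021 to 152884362, hg19, plus strand). Its level was 29.7 and 12.7 RPKM in the stimulated knockout libraries and 36.8 RPKM in the unstimulated knockout library, against 71.4 and 84.0 RPKM in the stimulated wild-type libraries and 130 RPKM in the unstimulated wild-type library. All 3 knockout libraries lay below all 3 wild-type libraries, and within each genotype the unstimulated library was the highest. Under IL-1α the means were 21.2 ± 12.003 RPKM in knockout and 77.7 ± 8.95 RPKM in wild type (SD, n = 2 each), a log2 difference of -1.96 ± 0.37 (SE, on the log2(RPKM + 0.5) scale; adjusted p = 0.150). Without stimulation the difference was -1.80, and the ratio of knockout to wild-type reads was 0.284 (exact 95% interval 0.271 to 0.298, counting error only, 1 library each). Only 0.263% of the 12925 tested genes had a more negative difference under IL-1α. The knockout replicates were 2.33-fold apart, and the difference was -1.37 without knockout replicate 2 and -2.56 without knockout replicate 1. Of the 8 keratinocyte markers given above, 6 were lower in knockout under IL-1α (median log2 difference of the 8 -0.48). They were KRT14, KRT17, SFN, CDH1 (-0.73), DSP (-0.33) and PERP (-0.29), while TP63 (0.41) and KRT5 (0.08) were higher. Without stimulation 5 of the 8 were lower and 3 higher. The part of these markers in the result was not tested. In bulk RNA, fewer cells of a type and less RNA per cell cannot be told apart.

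EVPL and PPL encode envoplakin and periplakin, plakin proteins that bind each other and tie the envelope to keratin filaments and desmosomes. EVPL stood at 15.8 and 14.6 RPKM in the stimulated knockout libraries and 20.0 RPKM in the unstimulated knockout library, against 13.4 and 15.2 RPKM in the stimulated wild-type libraries and 14.1 RPKM in the unstimulated wild-type library. PPL stood at 52.7 and 45.6 RPKM in the stimulated knockout libraries and 72.4 RPKM in the unstimulated knockout library, against 49.3 and 61.0 RPKM in the stimulated wild-type libraries and 68.3 RPKM in the unstimulated wild-type library. The genotypes overlapped for both genes. The knockout minus wild-type difference under IL-1α was 0.09 ± 0.16 for EVPL (adjusted p = 0.827) and -0.16 ± 0.18 for PPL (adjusted p = 0.704). Without stimulation it was 0.49 for EVPL (read ratio 1.42, exact 95% interval 1.34 to 1.504) and 0.08 for PPL (1.06, 1.03 to 1.09), and with the trend over transcript length removed, a step chosen after seeing the data, 0.20 for EVPL and -0.19 for PPL. Both genes varied little between replicates, the coefficient of variation of the IL-1α pairs being 5.86% (knockout) and 8.93% (wild type) for EVPL and 10.2% (knockout) and 15.1% (wild type) for PPL.

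CSTA encodes cystatin A, a cysteine protease inhibitor of the keratinocyte cytoplasm that is cross-linked into the envelope. It was the only member whose knockout libraries all lay above the wild-type ones: 60.9 and 37.8 RPKM with IL-1α and 40.8 RPKM without, against 36.1 and 26.7 RPKM with IL-1α and 29.5 RPKM without in wild type. The lowest knockout library, at 37.8 RPKM, was close to the highest wild-type library, at 36.1 RPKM. The difference under IL-1α, 0.62 ± 0.27, did not pass (adjusted p = 0.351), was 0.28 without knockout replicate 1, and was 0.46 without stimulation (read ratio 1.39, exact 95% interval 1.24 to 1.56), or 0.89 once a trend of the difference with transcript length was removed, a step chosen after seeing the data. CNFN encodes cornifelin, a small envelope protein. It read 1.05 and 0.386 RPKM with IL-1α and 0.931 RPKM without in knockout, against 1.41, 0.413 and 2.18 RPKM in wild type in the same order. These values rest on 12, 6 and 17 reads in knockout and 12, 4 and 19 reads in wild type, the groups overlap, and the difference under IL-1α was -0.17 ± 0.45 (adjusted p = 0.884). FLG encodes profilaggrin, the precursor of the filaggrin that bundles keratin filaments. Its reads numbered 44 and 75 with IL-1α and 135 without in knockout, against 32, 91 and 204 in wild type, which corresponds to 0.154 to 0.957 RPKM over its 12742 bases of exon. Under IL-1α the genotypes overlapped. Without stimulation the ratio of knockout to wild-type FLG reads was 0.317 (exact 95% interval 0.253 to 0.395, counting error only, 1 library each). FLG carries long repeats and has close relatives, so its reads may be shared, and it was not tested.

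TGM1 encodes the membrane-anchored transglutaminase of keratinocytes, whose loss causes lamellar ichthyosis (chromosome 14, 24718320 to 24732416, hg19, minus strand). Its level was 2.63 and 3.59 RPKM in the stimulated knockout libraries and 4.31 RPKM in the unstimulated knockout library, against 7.41 and 6.88 RPKM in the stimulated wild-type libraries and 12 RPKM in the unstimulated wild-type library. The genotypes did not overlap, and as for IVL the unstimulated library was the highest of each genotype. The means under IL-1α were 3.11 ± 0.677 RPKM in knockout and 7.14 ± 0.371 RPKM in wild type (SD, n = 2 each), a log2 difference of -1.09 ± 0.20 (adjusted p = 0.145). Without stimulation the difference was -1.38, with a read ratio of 0.359 (exact 95% interval 0.316 to 0.409). Leaving out either IL-1α library of either genotype kept the difference between -1.29 and -0.90.

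TGM2 encodes tissue transglutaminase, a broadly expressed enzyme that also binds GTP. It stood at 1.39 and 0.510 RPKM with IL-1α and 1.04 RPKM without in knockout, against 1.66 and 1.40 RPKM with IL-1α and 1.98 RPKM without in wild type. The genotypes were just apart, with the highest knockout library at 1.388 and the lowest wild-type library at 1.396 RPKM, and the difference under IL-1α was -0.55 ± 0.35 (adjusted p = 0.493). It lay at -0.10 without knockout replicate 2 and at -1.004 without knockout replicate 1. TGM3, the epidermal transglutaminase of late differentiation and hair follicles, had 1 read in all 6 libraries together, in stimulated wild-type replicate 2. A count of 0 allows up to 3 reads, or 0.0322 to 0.0515 RPKM in knockout libraries and 0.0674 to 0.0692 RPKM in the other wild-type libraries, counting error only. TGM5, expressed in the upper epidermis, had 1 and 0 reads with IL-1α and 5 without in knockout, against 11, 8 and 8 reads in wild type. The knockout counts were all lower although the knockout libraries were deeper, but at these counts the unstimulated ratio of 0.299 had an exact 95% interval of 0.0770 to 1.04. Of the summed RPKM of TGM1, TGM2, TGM3 and TGM5, TGM1 made up 65.2% to 87.6% in knockout libraries and 79.5% to 84.8% in wild-type libraries. TGM4, which is not a member and reached up to 0.905 RPKM, is not in that sum.

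Taking the 7 tested members against all genes, 0 passed the 0.05 threshold for knockout against wild type under IL-1α with limma, where 0.155% of genes did, and 0 passed with voom weights on rebuilt reads (0.426% of genes), which gave IVL an adjusted p of 0.0777 and TGM1 one of 0.0984. At unadjusted p below 0.05, 2 of the 7, IVL and TGM1, were lower and 0 higher, beside 4.93% of all genes lower and 9.97% higher. The genotypes did not overlap over all 6 libraries for 3 members that were lower in knockout (IVL, TGM1 and TGM2), an order that 8.86% of genes had, and for 1 that was higher (CSTA), as 15.7% of genes were. The median difference of the 7 was -0.17 and that of all tested genes 0.09. In a fit over all 6 libraries that assumes 1 genotype difference with and without IL-1α, both IVL (-1.91, adjusted p = 0.0165) and TGM1 (-1.19, adjusted p = 0.0131) passed, as 2.65% of all genes did (1.32% lower), and the other 5 members did not. Without IL-1α there is no test. There, IVL and TGM1 were at least 2-fold lower in knockout on the log2(RPKM + 0.5) scale, with 1 RPKM or more in wild type. This call held for 4.11% of genes. CNFN, at -0.90 on that scale, missed it, and its read ratio was 0.428 (exact 95% interval 0.209 to 0.870, counting error only). The CNFN value ran from -1.14 to -0.35 over 4 alternative settings. For all tested transcripts under 1 kb, CNFN among them, the median unstimulated difference was -0.51. On the same scale 0 members were 2-fold higher, beside 2.42% of genes. A fit with the replicate number as a block passed 0.449% of genes and 0 members.

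**Figure D2:**
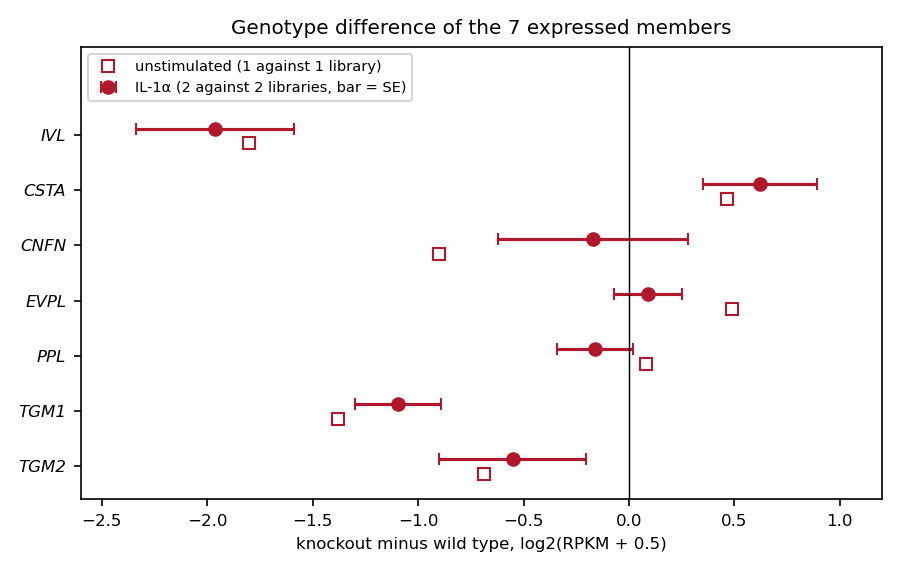
Knockout minus wild type in log2(RPKM + 0.5) on the horizontal axis for the 7 tested members; filled circles are IL-1α libraries with SE from limma and open squares the single unstimulated libraries. IVL and TGM1 lie at -1.96 and -1.09 under IL-1α and at -1.80 and -1.38 without it, CSTA on the other side at 0.62 and 0.46, and EVPL and PPL near 0 under IL-1α.

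Shares of the summed precursor RPKM within a library are not affected by its total. IVL made up 18.5% and 11.4% of the summed RPKM of the 6 precursors in the stimulated knockout libraries and 21.5% in the unstimulated knockout library, against 41.6% and 44.8% in the stimulated wild-type libraries and 53.0% in the unstimulated wild-type library. IVL was the most abundant member in all 3 wild-type libraries, whereas PPL (2 libraries) or CSTA (1 library) was in the knockout. The ratio of IVL to PPL was 0.564, 0.279 and 0.509 in the knockout IL-1α 1, IL-1α 2 and unstimulated libraries, against 1.45, 1.38 and 1.90 in wild type. The ratio of TGM1 to PPL was 0.04998, 0.0787 and 0.0595 in knockout, against 0.150, 0.113 and 0.176 in wild type in that order. The ratio of CSTA to PPL overlapped between genotypes, at 1.16, 0.830 and 0.564 in knockout against 0.732, 0.438 and 0.431 in wild type, whereas the share of CSTA in the sum, 23.8% to 37.996% in knockout against 12% to 21.0% in wild type, also moves with the level of IVL. IVL per TGM1 overlapped between genotypes, at 11.3, 3.54 and 8.55 in knockout and 9.64, 12.2 and 10.8 in wild type, with stimulated knockout replicate 2 apart from the others.

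**Figure D3:**
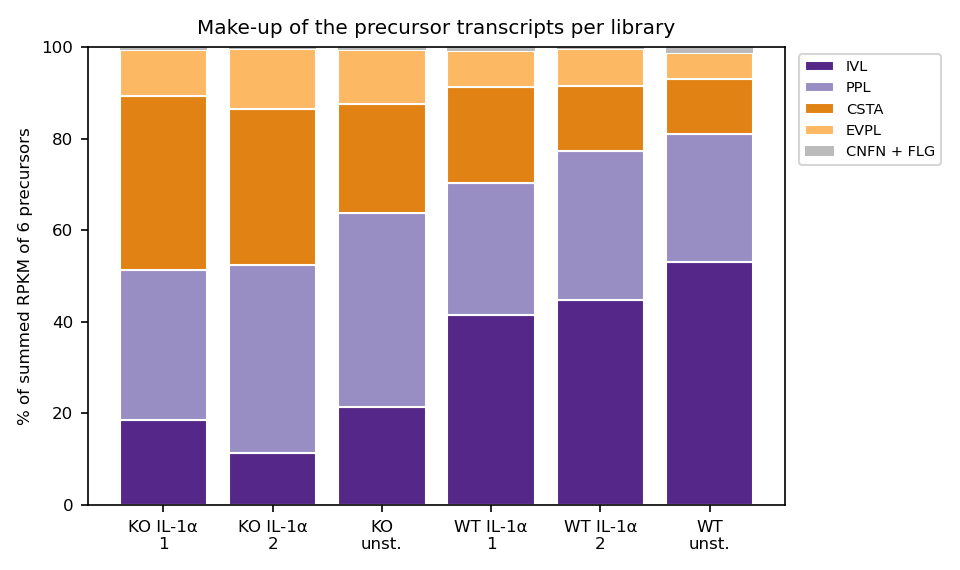
Share of each precursor in the summed RPKM of the 6 precursors, in percent, for each library (KO knockout, WT wild type, unst. unstimulated). IVL takes 11.4% to 21.5% in knockout and 41.6% to 53.0% in wild type, and the CSTA share is larger in every knockout library than in any wild-type library.

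IL-1α, an alarm cytokine that keratinocytes release on injury, was not followed at 4 h by a higher level of any tested member in both replicates of a genotype, beside 27.8% of genes in knockout and 27.5% in wild type. In knockout cells both IL-1α libraries lay below the unstimulated one for IVL, EVPL, PPL and TGM1 (4 of 7 tested members, 36.4% of all genes), and in wild type for IVL, CNFN, PPL, TGM1 and TGM2 (5 of 7, 54.3% of all genes). IVL, PPL and TGM1 did so in both genotypes, as 25.9% of genes did. The log2 response of IVL was -0.90 ± 0.46 in knockout (adjusted p = 1) and -0.74 ± 0.46 in wild type (adjusted p = 0.444). The knockout value was -1.50 without knockout replicate 1 and -0.31 without knockout replicate 2. TGM1 responded by -0.43 ± 0.25 in knockout (adjusted p = 1) and -0.71 ± 0.25 in wild type (adjusted p = 0.227), its knockout value running from -0.62 to -0.23 with 1 knockout replicate left out. PPL responded by -0.56 ± 0.22 in knockout (adjusted p = 1) and -0.31 ± 0.22 in wild type (adjusted p = 0.494). With limma 0 of 7 members passed in either genotype, beside 0.0696% of genes in knockout and 0.217% in wild type. At unadjusted p below 0.05, PPL in knockout and TGM1 in wild type were lower, beside 1.05% of genes in knockout and 13.4% in wild type. With voom 0 members passed in either genotype, beside 0.0155% of genes in knockout and 0.0851% in wild type. The wild-type responses sit on a shifted background: the median of all genes was -0.02 in knockout and -0.14 in wild type, and that of transcripts under 1 kb, such as CNFN and CSTA, was -0.01 in knockout and -0.53 in wild type.

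**Figure D4:**
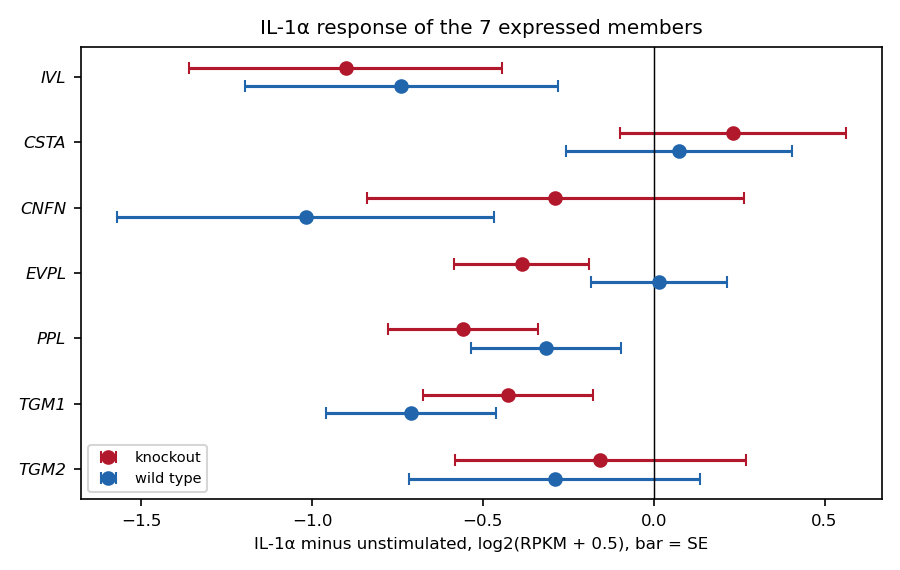
IL-1α minus unstimulated in log2(RPKM + 0.5) on the horizontal axis for the 7 tested members in knockout and wild type, with SE from limma. IVL, PPL and TGM1 lie below 0 in both genotypes, and no member passed the test.

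The genotype by IL-1α interaction, which asks whether the response differed between genotypes, passed for 0 of 7 members and for 0 of all genes in limma; at unadjusted p below 0.05 there were 0 members and 4.39% of genes, and voom passed 0. The sizes ran from -0.40 ± 0.28 for EVPL to 0.73 ± 0.78 for CNFN (adjusted p = 0.966 for both), with IVL at -0.16 ± 0.65 and TGM1 at 0.28 ± 0.35. With 1 library left out the interaction ran from 0.20 to 1.26 for CNFN, from 0.092 to 0.48 for TGM1 and from -0.76 to 0.43 for IVL. The unstimulated side of each rests on 1 library per genotype.

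Other envelope genes differed in how they stood to IL-1α. The SPRR genes encode small proline-rich proteins that cross-bridge the envelope, and 7 of the 10 listed reached 1 RPKM. All 7 were higher with IL-1α in both genotypes. With limma, SPRR2A and SPRR2D passed the 0.05 threshold in knockout, and SPRR2A, SPRR2D, SPRR2E and SPRR2F passed it in wild type. The median response of the 7 was 4.33 in knockout and 6.16 in wild type. For the 7 envelope and transglutaminase genes above it was -0.39 in knockout and -0.31 in wild type. These SPRR medians are the same with unstimulated libraries that lack reads set at 3 reads. Of all genes 0.0696% passed as higher in knockout and 0.201% in wild type. SPRR2A stood at 58.5 and 50.6 RPKM with IL-1α and 1.11 RPKM without in knockout, against 483 and 295 RPKM with IL-1α and 4.797 RPKM without in wild type. Under IL-1α all 7 were lower in knockout (median -2.87), the direction in which IVL lay. SPRR2A and SPRR2D passed as lower with limma (-2.78 and -3.40, adjusted p = 0.0421 and 0.0342), beside 0.108% of genes. With any 1 of the IL-1α libraries that a comparison uses left out, 0 genes passed in the knockout response, in the wild-type response and in knockout against wild type under IL-1α, so every SPRR call given here is lost. The SPRR2 genes are near copies that may share reads. Of 26 genes for loricrin, late envelope and S100-fused proteins, 24 stayed below 1 RPKM everywhere, LOR at most at 0.140 RPKM, and of the 2 that reached it LCE1E peaked at 1.12 RPKM and TCHH at 1.34 RPKM. All 6 other transglutaminase family genes stayed below 1 RPKM, TGM4 at up to 0.905 RPKM F13B with 1 read in all and F13A1 at 0 in every library.

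The remaining lists held no gene that passed in any contrast. The 5 other plakins were all lower in knockout under IL-1α (median -0.50), DSP, the desmosomal desmoplakin, at 94.2 and 92.8 RPKM in knockout against 103 and 135 RPKM in wild type, and PLEC, plectin, at 55.1 and 58.1 RPKM in knockout against 73.0 and 65.5 RPKM in wild type. Without stimulation 3 of the 5 plakins were higher in knockout (median 0.16), DSP at 111 RPKM in knockout against 92.3 RPKM in wild type and PLEC at 62.4 RPKM in knockout against 55.7 RPKM in wild type. The 3 other cystatins had a median of -0.21, CSTB at 107 and 104 RPKM in knockout against 148 and 101 RPKM in wild type and CST3 at 154 and 169 RPKM in knockout against 177 and 125 RPKM in wild type; the genotypes overlapped for both. Of 8 expressed filaggrin-processing genes 5 were lower and 3 higher (median -0.43). For 4 of the 8, ST14 among them, all knockout libraries lay below all wild-type libraries with and without IL-1α, beside 8.86% of genes. For 0 they lay above, beside 15.7% of genes. ST14, the protease matriptase, stood at 127 and 91.0 RPKM in knockout against 188 and 172 RPKM in wild type under IL-1α. CAPN1, a calpain protease of the same list, stood at 184 and 172 RPKM in knockout against 160 and 164 RPKM in wild type. The 5 expressed lipid-envelope genes had a median of -0.05, with UGCG, the glucosylceramide synthase, at 26.7 and 26.1 RPKM in knockout against 22.2 and 33.8 RPKM in wild type, and SPTLC2 at 15.1 and 16.9 RPKM in knockout against 14.7 and 18.3 RPKM in wild type. KRT10, a suprabasal keratin, stood at 25.1 and 14.5 RPKM with IL-1α and 40.1 RPKM without in knockout, against 44.1 and 30.3 RPKM with IL-1α and 119 RPKM without in wild type. Its partner KRT1 was lower in all knockout libraries (0.427 to 1.69 RPKM) than in any wild-type library (1.95 to 3.72 RPKM).

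Likeness to a member was the root mean square difference of centred log2 values over the 6 libraries. It was taken among 8246 genes with a mean of at least 5 RPKM, without antisense, divergent, overlapping, LOC, LINC and pseudogene entries. The nearest genes to IVL were AGR2 (0.22), a disulfide isomerase, and KRT17 (0.25), a wound keratin, which stood at 747, 267 and 778 RPKM in knockout against 2167, 1745 and 2245 RPKM in wild type (IL-1α 1, IL-1α 2, unstimulated). The nearest to TGM1 were SNORD139 (0.11), a small nucleolar RNA, and ARTN (0.14), a growth factor of the GDNF family. PPL was nearest to DAG1 (0.085) and MYO18A (0.094), and CSTA to HPCAL1 (0.12) and PCGF5 (0.17). Among the members, the nearest to IVL was TGM1 at 0.61, at rank 42 of the genes compared. The nearest to TGM1 was PPL, also at 0.61 but at rank 2325. PPL and EVPL were nearest to each other among the members at 0.20. Many other genes were closer, with EVPL at rank 544 for PPL and PPL at rank 1798 for EVPL.

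The members' places in the genome were compared with the genotype difference of their neighbours, a comparison chosen after the values were seen. Of the 1381 tested genes of chromosome 1, which carries IVL and FLG, 22.3% had all 3 knockout libraries below all 3 wild-type libraries, the highest share of 23 chromosomes and above the 8.86% of all genes, and 3.69% had them all above, the lowest share. The median difference under IL-1α on chromosome 1 was -0.11, against 0.09 over all genes. Within the differentiation complex, from S100A10 to S100A1, 14 of 27 tested genes, IVL included, had all knockout libraries below all wild-type libraries and 26 of 27 were lower under IL-1α, with a median of -0.91. Over chromosome 1 as a whole 875 of 1381 were lower under IL-1α. Without the S100 and SPRR genes the complex had 6 tested genes, of which 5 were lower, with a median of -0.54. In the 5 Mb on either side the share was 16.7% (60 tested genes) and 24.7% (93 tested genes), with medians of -0.08 and -0.11. IVL itself, at -1.96, lay 1.85 below the median of its chromosome, and 0.652% of chromosome 1 genes were lower still.

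Around TGM1 the share of genes lower in all knockout libraries was smaller than around IVL. On chromosome 14, 4.11% of 414 tested genes were lower in all knockout libraries, and TGM1 had the lowest difference under IL-1α of them all. Within 10 Mb of TGM1 the share was 3.16% of 95 genes. The median difference of those genes was 0.12 under IL-1α and -0.26 without it. On chromosome 14 as a whole it was 0.12 and -0.13, and over all genes 0.09 and -0.01. For CSTA, 18.6% of chromosome 3 genes and 13.3% of the 98 within 10 Mb were higher in all knockout libraries. For TGM5, 23.3% of the 150 genes within 10 Mb were lower in all knockout libraries, beside 12% of chromosome 15. The number of gene copies was not measured, so for IVL a difference in copies of the region between the cells of the 2 genotypes and a difference in transcription cannot be told apart. The part of position in the differences of FLG, TGM1 and TGM5 was not tested.

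**Figure D5:**
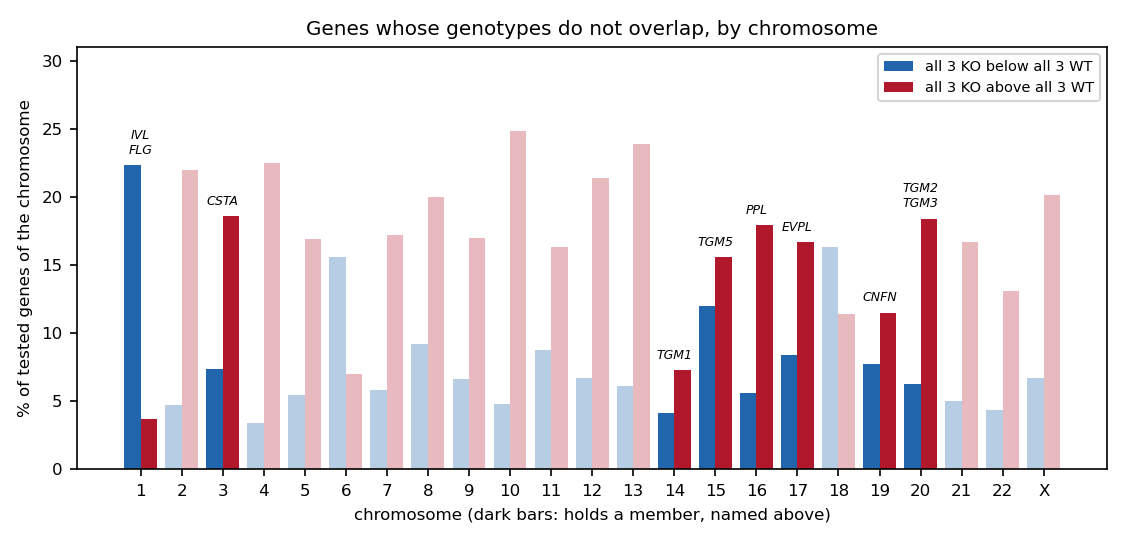
Percent of the tested genes of each chromosome whose 3 knockout libraries all lie below (blue) or above (red) the 3 wild-type libraries; dark bars mark chromosomes that carry a member, named above them. Chromosome 1, with IVL and FLG, has 22.3% below and 3.69% above, and chromosome 14, with TGM1, has 4.11% below and 7.25% above.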

How the data were processed

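The 6 libraries were deposited as 1 table of RPKM values, which the authors made, per the file headers, by counting exon reads on hg19 with HOMER analyzeRepeats, 1 line per gene (columns headed FPKM). The submitters' processing notes also name bcl2fastq (2.20.0.422) and STAR. Other versions and the strand setting of the counting are not given in the sources used here, so antisense reads may be included. Read numbers were rebuilt by searching, for each library, the total that makes values of 0.02 to 1 RPKM whole; 97.9% to 99.8% came within 0.1 read of a whole number. Intervals (exact, 95%) and floors (3 reads) cover counting error only.

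All 12925 genes with at least 1 RPKM in 1 library were analysed on the log2(RPKM + 0.5) scale. The limma model (version 3.58.1) had a coefficient for each of the 4 groups, moderated variances with trend, and Benjamini-Hochberg adjustment over all genes at 0.05, and was tested on simulated data. There were 2 residual and 4.2 prior degrees of freedom. Differences on this scale understate those of low genes. The unstimulated comparison has 1 library per genotype and no test. The main model did not pair the libraries by replicate number. The correlation of replicate deviations across genes was 0.0086, but with 1 replicate difference per genotype it cannot exclude a pairing. Genes named are the members, MAPK14, the genes of each related list that passed or otherwise the 2 most abundant, and the 2 nearest in pattern (those of EVPL are not reported here); LOR, F13A1 and single markers were chosen after their values were seen. Members and lists were chosen with earlier results of these data known. Alternatives were other pseudocounts, filters, scalings, voom, a replicate block, an additive fit and leaving out libraries.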

Additional observations from a re-analysis of the deposited data

How the results depend on the processing

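With 2 IL-1α libraries per genotype and 1 unstimulated library each, counts of passing genes moved with the settings. The response in wild type passed 28 genes, and 49 with no filter on low values, 53 with median-of-ratios scaling, 11 with voom, 138 in the additive fit over all 6 libraries and 97 with the length trend removed (chosen after seeing the data); leaving out either wild-type IL-1α library gave 0, and leaving out a knockout one, which enters only through the shared variance, gave 55 or 70. The response in knockout passed 9, and 5 with a pseudocount of 1, 65 without the filter, 4 without the variance trend and 2 with voom; leaving out a library gave 0. Knockout against wild type under IL-1α passed 20, and 7 with a pseudocount of 0.1, 0 without the filter, 13 with quantile normalization, 0 without the variance trend, 55 with voom, 343 in the additive fit and 42 with the length trend removed; leaving out a library gave 0, the lone library being assumed to vary like the others. With the replicate block it passed 58, and no member changed its call under the block. By their labels the blocked libraries share only a replicate number, and whether they were handled together is not known. The interaction passed 0, and 87 without the filter. The cause of these moves was not tested.

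Of 364 member values from tests under these settings, only IVL (-1.91) and TGM1 (-1.19) in the additive fit newly passed. IVL under IL-1α ran from -2.56 to -1.37 and TGM1 from -1.29 to -0.90. Signs turned for 16 small values. In wild type, the CSTA response was -0.14 without replicate 1 and 0.29 without replicate 2, and that of EVPL was -0.072 to 0.10 with a replicate left out, -0.19 in the additive fit and -0.10 with the length trend removed. In knockout, leaving out a replicate gave responses of -0.11 to 0.57 for CSTA, -0.69 to 0.12 for CNFN and -0.61 to 0.29 for TGM2. The genotype difference of CNFN ran from -0.71 to 0.36 with a replicate left out, at 0.23 without knockout replicate 2, and that of EVPL was -0.024 with median-of-ratios scaling and -0.079 with the length trend removed. The interaction ran from -0.76 to 0.43 for IVL, -0.32 to 0.58 for TGM2 and -0.18 to 0.50 for CSTA with a replicate left out (CSTA -0.06 without wild-type replicate 2), and was -0.25 for CSTA with the length trend removed. With that trend removed, the unstimulated difference was -1.70 for IVL, 0.89 for CSTA, 0.20 for EVPL and -0.19 for PPL. CNFN, TGM3 and TGM5 rest on few reads. FLG had 32 to 204 reads per library, but stayed below 1 RPKM over its 12742 bases of exon.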
